A study of Homo sapiens with 24 samples.

Results

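Peaks of open chromatin on human chromosome 4 (hg19) were examined along both arms in prostate cancer cells that are sensitive or resistant to enzalutamide (ENZ), a drug that blocks the androgen receptor. All peaks on the chromosome were taken from the 24 peak lists, 273865 of 4683186 peaks in all (5.85%). They were split at 50 Mb into a short arm (4p, 73497 peaks) and a long arm (4q, 200368 peaks) and placed in 2-Mb bins. The last 4p peak before the split, at chr4:49659433-49660081, was called in all 24 lists with a fold enrichment of 4.85 to 6.91. The first 4q peak after it, at chr4:52660571-52660884, was called in 23 lists with a fold enrichment of 3.38 to 5.74, so that no peak lay near the split itself and 1 of the 96 bins was empty. Chromosome 4 was selected on earlier results of these data, in which its share of peaks fell in the resistant cells. The values of that contrast are therefore described here without a test, whereas the effects of treatment, which the selection did not use, were tested.

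LNCaP is an androgen-sensitive prostate cancer cell line, here the parental subline, and RES-A was derived from it by passage in rising amounts of ENZ. Both sublines spent 3 days in medium with 5% charcoal-stripped serum, which holds little androgen, and RES-A alone had 10 µM ENZ in that medium. The cells then received DMSO (the solvent), 10 nM dihydrotestosterone (DHT, the main androgen of the prostate), 10 µM ENZ, or both agents (DHT+ENZ), and were collected after 18 h. Biological triplicates were labelled in all 8 groups, hence 12 libraries for each subline. RES-A is a single derived line, so the spread between its libraries does not cover the spread between independently derived resistant lines.

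FAIRE-seq recovers DNA that is loosely bound by nucleosomes, and its peaks fall at promoters, enhancers and other regulatory elements. The androgen receptor is a hormone-dependent transcription factor that binds such elements after DHT enters the cell, and ENZ prevents this. A peak caller sets the reads at a site (the pileup) against the reads expected there from the neighbourhood or from the genome as a whole, whichever is higher. Without a control library, that expectation, the local background, comes from the reads around the peak in the same library. Whether a control library was used is not given in the sources used here, and with one the background would describe the control.

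The lists held 73254 to 275774 peaks in LNCaP and 169514 to 240262 in RES-A, of which 4570 to 19339 and 8666 to 12038 lay on chromosome 4. The genome-wide background, a measure of depth, ran from 0.406 to 5.99 reads per base in LNCaP and from 1.81 to 4.48 in RES-A. It was under 1 in 2 libraries, LNCaP ENZ replicate 1 (0.406) and LNCaP DHT replicate 1 (0.739). Within each group, at most 0.041% of the intervals on chromosome 4 were identical in a pair of lists, so no list appeared to be repeated within a group. This value does not cover pairs of lists from different groups. Genes near these peaks were not analysed here, and the identity of the cells could not be checked by marker genes.

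The long arm held a smaller share of the peaks in RES-A than in LNCaP, and the short arm was nearly level as a whole, with higher shares before 26 Mb and lower ones after it. The 4q share of a list ranged from 4.52% to 5.35% in the 12 LNCaP libraries (median 4.96%) and from 3.43% to 3.68% in the 12 RES-A libraries (median 3.56%). The groups did not overlap, and the mean fell from 4.94% ± 0.253 (SD, n = 12) to 3.56% ± 0.0828 (n = 12), a ratio of 0.72. The 4p share ranged from 1.58% to 1.67% in LNCaP (median 1.60%) and from 1.49% to 1.56% in RES-A (median 1.54%). These groups did not overlap either, but the means, 1.60% ± 0.0261 and 1.53% ± 0.0206 (n = 12 each), gave a ratio of only 0.955. In LNCaP the 3 lowest 4q shares, 4.52%, 4.61% and 4.69%, were those of the 3 libraries with the lowest background (DMSO replicate 3, ENZ replicate 1 and DHT replicate 1). With both arms together the share of chromosome 4 was 6.54% ± 0.263 in LNCaP and 5.09% ± 0.0759 in RES-A. Of the 24 chromosomes, it had the lowest ratio (0.778) and the greatest loss of share (-1.45 percentage points).

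The same pattern was found under each treatment. The 4q share differed by -1.40 percentage points with DMSO, -1.37 with DHT, -1.32 with ENZ and -1.43 with DHT+ENZ, in each case with no overlap of 3 against 3 libraries. The 4p share differed by -0.0503, -0.113, -0.0748 and -0.0542 percentage points in the same order, also without overlap.

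The local background showed the same contrast between the arms. It is given as the median over the peaks of a zone, in log2 units over the genome-wide background of that library, so that 0 is the lowest possible value. On 4q it ranged from 0.34 to 0.55 in LNCaP (median 0.41) and from 0.13 to 0.23 in RES-A (median 0.18). On 4p it ranged from 0.27 to 0.48 in LNCaP (median 0.33) and from 0.25 to 0.39 in RES-A (median 0.32). The 4q groups were apart and the 4p groups overlapped almost entirely, with mean differences of -0.24 and -0.03. The small 4p difference turned to 0.07 at the sites called in all 24 libraries and among the 50000 peaks of each list with the highest −log10 p, so it has no settled sign. Within a library, the background of 4q minus that of 4p was 0.07 ± 0.03 in LNCaP and -0.14 ± 0.02 in RES-A (SD, n = 12 each). The share of 4q peaks whose local background sat at the genome-wide value, within 1%, rose from 18.9% ± 2.14 in LNCaP to 37.5% ± 2.14 in RES-A, against 25.9% ± 4.26 and 30.3% ± 2.15 on 4p.

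In 2-Mb bins, the difference in background changed not at the arm split but at 60 Mb and 138 Mb. A least-squares segmentation of the difference between the sublines in 2-Mb bins placed change points there and divided the chromosome into a proximal zone (0 to 60 Mb, 29 bins), a middle zone (60 to 138 Mb, 39 bins) and a distal zone (138 to 192 Mb, 27 bins). The mean log2 difference was -0.04 in the proximal zone, -0.34 in the middle zone and -0.04 in the distal zone. The deficit of RES-A was thus deepest within 4q. Single bins outside the middle zone were lower too, such as those from 30 to 32 Mb (-0.20) and from 34 to 36 Mb (-0.25) on 4p. In the distal zone those from 162 to 164 Mb (-0.29) and from 190 to 192 Mb (-0.31) were lower. The difference was below 0 in 18 of the 29 proximal-zone bins and in 18 of the 27 distal-zone bins. Its size was bounded, because no background can lie below 0. Where RES-A sat at 0, as from 134 to 136 Mb, the difference was minus the LNCaP value (-0.61). From 172 to 174 Mb LNCaP itself was at 0.03, and the difference was only -0.03 although the share ratio was 0.45. This limit enters the zone means and the change points. Since these zones were drawn from this difference, the zone values below describe it and do not support it.

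**Figure D1:**
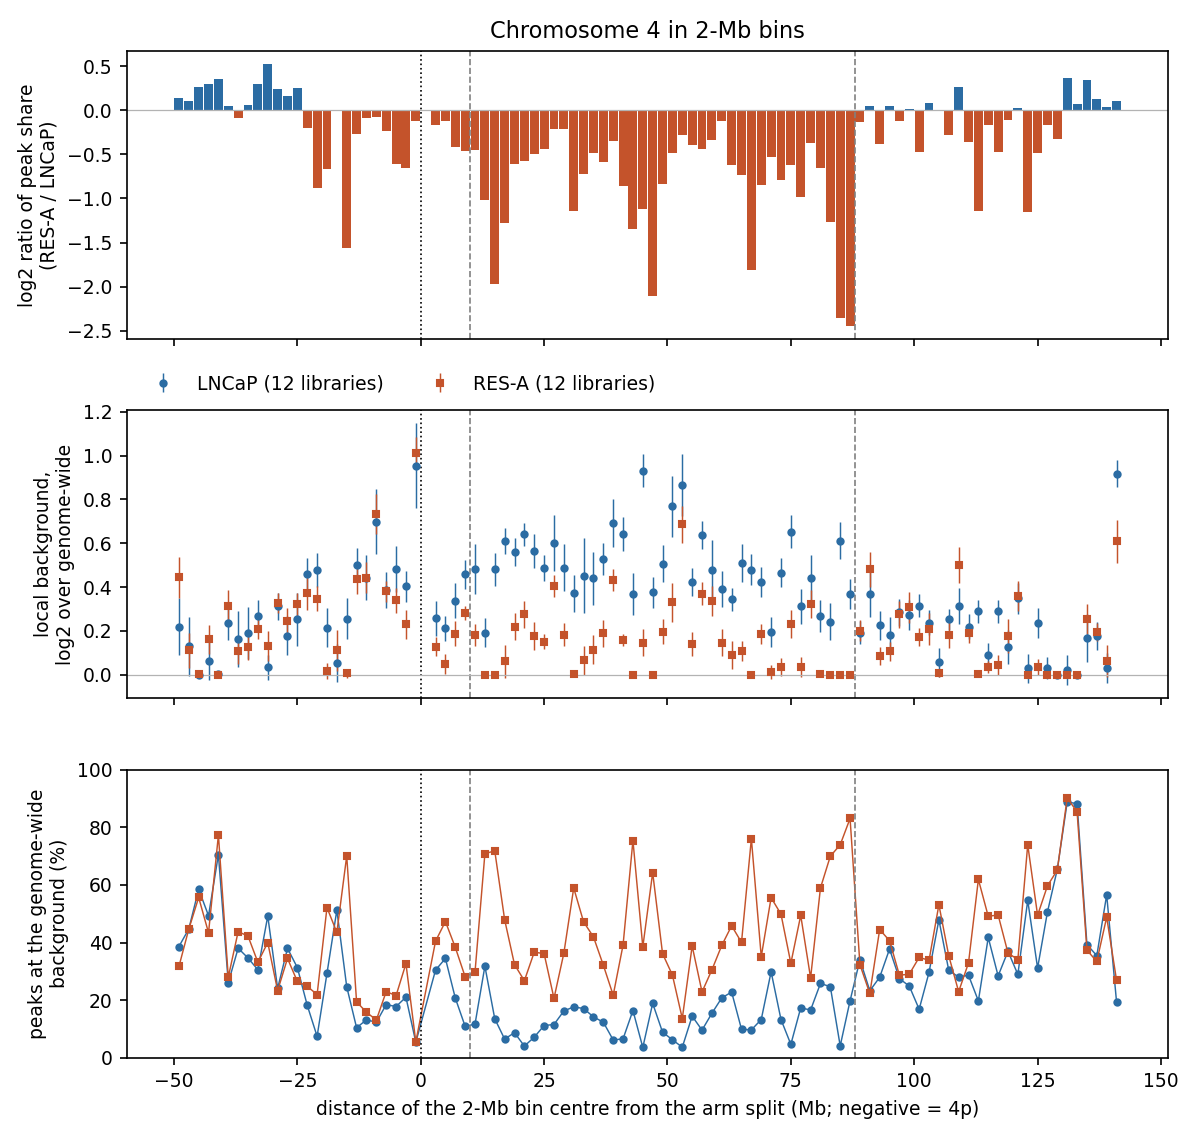
Chromosome 4 in 2-Mb bins, plotted by distance of the bin centre from the arm split (Mb, dotted line; dashed lines mark the change points 10 Mb and 88 Mb beyond it). From top to bottom: log2 ratio of the mean peak share, RES-A over LNCaP; mean local background ± SD over 12 libraries per subline, log2 over genome-wide; mean percentage of peaks at the genome-wide background. All 39 bins between the dashed lines had a ratio below 1, with the lowest next to the distal change point.

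The distal change point was stable and the proximal one was not. The distal point stood at 138 Mb in each of the 4 treatments analysed alone, with a weaker or a stronger penalty and with peak share in place of background, and at 137 Mb with 1-Mb bins. The proximal point stood at 64 Mb with DMSO, 60 Mb with DHT, 64 Mb with ENZ and 58 Mb with DHT+ENZ. The weaker penalty and the DMSO and ENZ libraries alone also placed a point at 26 Mb on 4p. With that point, the log2 difference was 0.03 from 0 to 26 Mb and -0.09 from 26 to 60 Mb. Peak share gave 7 points in place of 2. The first was at 26 Mb, with a mean log2 ratio of 0.21 before it and -0.40 from there to 62 Mb, and the other 6 bounded dips at 62 to 68 Mb (mean log2 ratio -1.40), 92 to 98 Mb (-1.51) and 132 to 138 Mb (-1.995) within the middle zone.

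Bins of 500 kb showed how abrupt the points were. At the distal point the RES-A over LNCaP ratio of peak share was 0.117 from 137 to 137.5 Mb, 0.341 from 137.5 to 138 Mb, 0.521 from 138 to 138.5 Mb, 0.873 from 138.5 to 139 Mb and 0.986 from 139 to 139.5 Mb. Peaks at the genome-wide background made up 85.9% in RES-A and 66.5% in LNCaP from 138 to 138.5 Mb, and 35.6% and 31.5% in the next 500 kb. At this point the shares thus became nearly equal within 2 Mb. Over the whole distal zone, 4 of 27 2-Mb bins were lower in RES-A without overlap and 1 was higher. In the genome 16.6% of the bins were lower and 15.7% higher, so the lower bins were no more frequent here. The ratio was 0.453 from 162 to 164 Mb. At the proximal point the ratio was 0.736 just before and 0.756 just after 60 Mb, rose to 1.29 and 1.48 from 61.5 to 62.5 Mb, where the 12 lists of a subline held 126 to 204 peaks per 500 kb, and fell to 0.248 and 0.197 from 63 to 64 Mb. The proximal side had no single step.

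**Figure D2:**
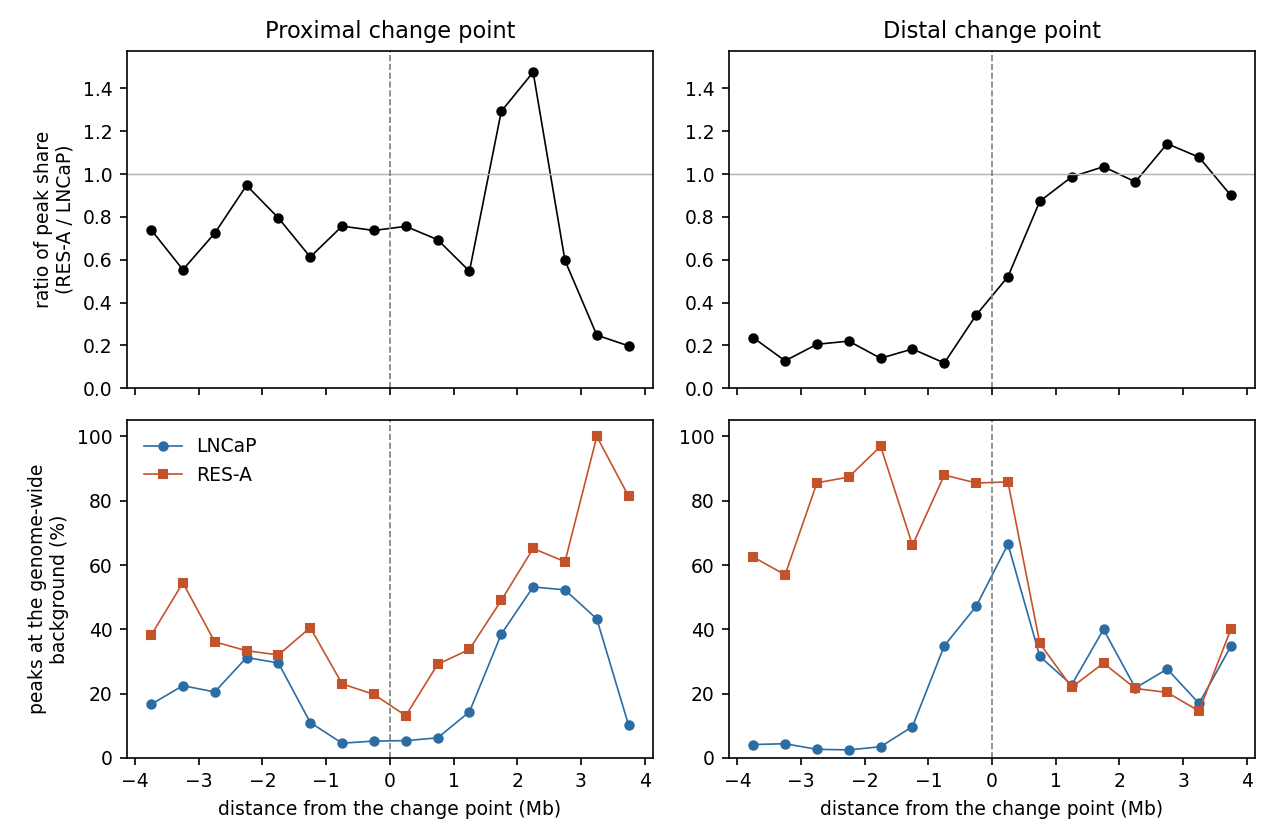
Peak share and background in 500-kb bins within 4 Mb of each change point (x axis, Mb from the change point; dashed line at 0). Upper panels give the ratio of mean peak share, RES-A over LNCaP, and lower panels the percentage of all peaks of the 12 libraries of a subline that sat at the genome-wide background. At the distal point the ratio climbed from 0.117 to 0.986 within 2 Mb, and at the proximal point it was 0.736 and 0.756 on both sides.

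The middle zone carried most of the loss of 4q. Its share of a list ranged from 2.81% to 3.50% in LNCaP (median 3.17%) and from 1.86% to 2.01% in RES-A (median 1.93%), a ratio of the means of 0.617. The proximal zone had a ratio of 0.933 and the distal zone 0.917. Peaks at the genome-wide background made up 12.1% ± 1.89 of the middle-zone peaks in LNCaP and 37.1% ± 2.27 in RES-A (SD, n = 12 each). The sublines differed less in the outer zones, with 25.5% ± 4.21 against 31.4% ± 2.17 in the proximal and 32.3% ± 3.55 against 37.7% ± 2.17 in the distal zone.

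Comparison within each library showed that the middle zone stood above its flanks in LNCaP and slightly below them in RES-A. The background of the middle zone minus that of both outer zones was 0.22 to 0.32 in the 12 LNCaP libraries (median 0.24) and -0.08 to -0.04 in the 12 RES-A libraries (median -0.06). Peaks per Mb in the middle zone were 1.22 to 1.44 times those of the outer zones in LNCaP and 0.86 to 0.914 times in RES-A. In these bulk libraries, fewer cells that carry a signal and less signal in each cell cannot be told apart, and the number of DNA copies was not measured.

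**Figure D3:**
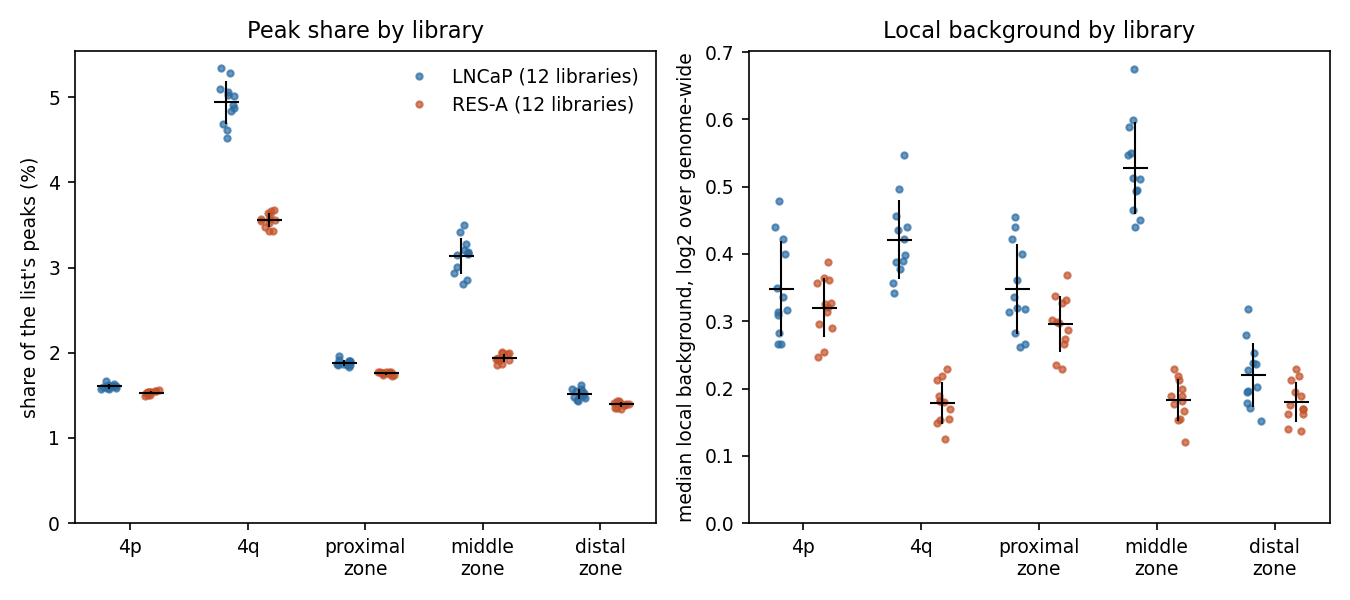
Values of each library in both arms and in the 3 zones, with LNCaP in blue and RES-A in orange (12 libraries each; black bars, mean ± SD). Left, percentage of the peaks of a list; right, median local background, log2 over genome-wide. The middle zone held 2.81% to 3.50% of the peaks in LNCaP and 1.86% to 2.01% in RES-A.

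Among the 95 bins that averaged 20 peaks or more in a library, 43 were lower in all 12 RES-A libraries than in any LNCaP library and 2 were higher. Over the whole genome 16.6% of 1463 bins were lower without overlap and 15.7% were higher. Of the 43 lower bins, 31 lay among the 39 of the middle zone, 8 among the 29 of the proximal zone and 4 among the 27 of the distal zone. All 39 middle-zone bins had a ratio below 1 in each of the 4 treatments. The 12 proximal-zone bins with a ratio above 1 reached 1.44 and the 12 distal-zone bins 1.29.

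Of the 3 bins with the lowest ratios, 2 lay just before the distal change point and the other at 96 to 98 Mb. From 136 to 138 Mb the share ranged from 0.0355% to 0.0690% in LNCaP and from 0.00779% to 0.0112% in RES-A, a ratio of 0.184. From 134 to 136 Mb it ranged from 0.0737% to 0.106% in LNCaP and from 0.0139% to 0.0206% in RES-A, a ratio of 0.195. From 96 to 98 Mb it ranged from 0.0601% to 0.0832% in LNCaP and from 0.0138% to 0.0200% in RES-A, a ratio of 0.232. RES-A was far below LNCaP in all 3, and 83.1%, 74.0% and 64.3% of its peaks there sat at the genome-wide background, against 19.8%, 4.15% and 18.9% in LNCaP.

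The 3 bins with the highest ratios overlapped between the sublines. From 18 to 20 Mb the share was 0.0146% to 0.0238% in LNCaP and 0.0229% to 0.0318% in RES-A, a ratio of 1.44. From 180 to 182 Mb it was 0.00754% to 0.0116% and 0.0103% to 0.0145%, a ratio of 1.29 in a bin with a mean of only 20.8 peaks. From 8 to 10 Mb it was 0.0341% to 0.0479% and 0.0438% to 0.0523%, a ratio of 1.28.

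On both sides of the change points the bins differed as follows. The bins from 58 to 60 Mb and from 60 to 62 Mb had ratios of 0.724 and 0.734 and background differences of -0.18 and -0.30. The bin from 138 to 140 Mb had a ratio of 0.914 and a background difference of 0.01, beside 0.184 and -0.37 in the bin before it. In these 2-Mb bins, peak share and background thus moved together at the distal point. At the proximal point the share ratio was level and the background changed. Bins of 500 kb gave a less simple picture. From 137 to 137.5 Mb the share ratio was 0.117, but the background was only 0.10 in LNCaP and at its lowest possible value in RES-A. It was 0.58 in LNCaP and 0.35 in RES-A from 59.5 to 60 Mb, and 0.61 and 0.48 from 60 to 60.5 Mb, so no step lay at 60 Mb itself.

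Sites called in every library allowed the pileup to be compared at the same places. On chromosome 4, 1580 merged regions overlapped a peak in all 24 lists (488 on 4p, 1092 on 4q), of 29296 in the genome. The pileup is given as log2(pileup + 1) minus the median over all 29296 sites of the same library. The median over the 677 middle-zone sites ranged from 0.00 to 0.18 in LNCaP (median 0.12) and from -0.45 to -0.37 in RES-A (median -0.39), with no overlap. Site by site, the median difference was -0.46 in the middle zone, -0.09 over the 562 proximal sites and -0.06 over the 341 distal sites, against 0.02 over all sites of the genome. The difference was below 0 at 615 of the 677 middle-zone sites (90.8%), at 58.2% of the proximal and at 57.8% of the distal sites.

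The level of these differences depends on the scale. With the pileup set against the genome-wide background, the median difference over all sites of the genome was 0.43, that of the middle zone -0.05 and that of the outer zones 0.34. The scales differ by 1 constant per library, so that differences relative to all sites, -0.48 for the middle zone and -0.09 for the outer zones, are the same on both by construction. Within a library, the middle zone minus the outer zones was 0.10 to 0.20 in LNCaP (median 0.15) and -0.28 to -0.14 in RES-A (median -0.23). Each of the 12 LNCaP libraries was thus above 0 and each of the 12 RES-A libraries below it.

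**Figure D4:**
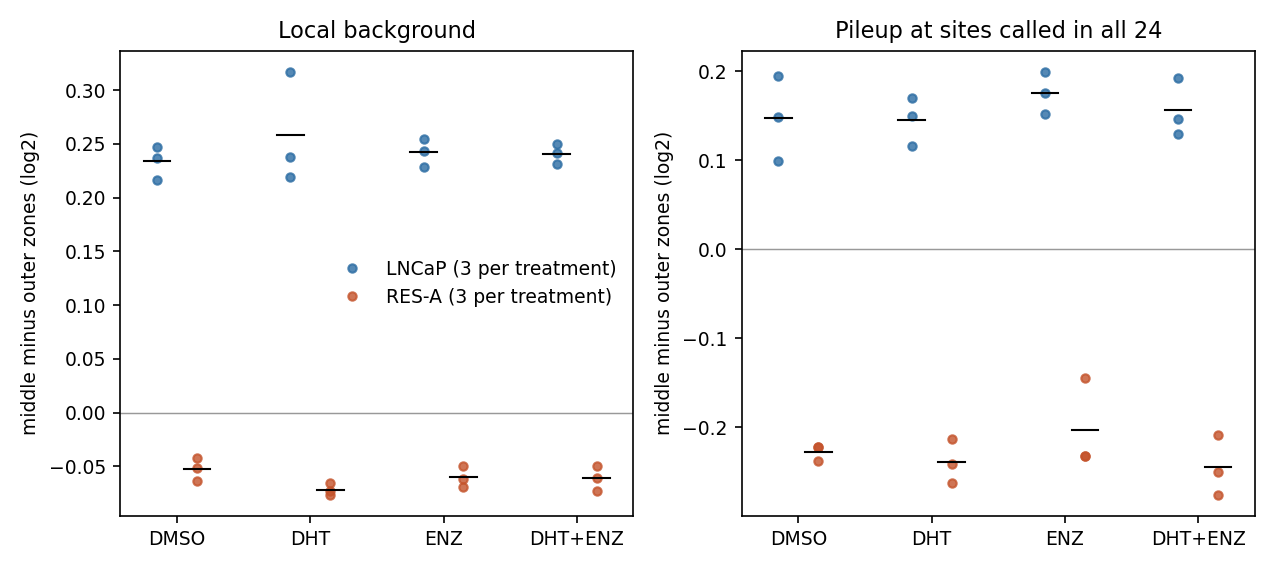
Middle zone minus both outer zones within each library, by treatment (log2; points, 3 libraries per subline and treatment; black lines, means). Left, local background of all peaks; right, pileup at the 1580 sites called in all 24 libraries. LNCaP (blue) lay at 0.22 to 0.32 and 0.10 to 0.20, RES-A (orange) at -0.08 to -0.04 and -0.28 to -0.14.

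Relative to all sites of the genome, pileup and background were both lower in the middle zone, and the centred fold enrichment changed little. Against the genome-wide background, the scale on which the local background is given, the median middle-zone difference of the pileup was only -0.05. At the same sites the median difference of the local background was -0.31 in the middle zone, 0.03 in the proximal and 0.05 in the distal zone, against 0.14 over the genome. The median difference of log2 fold enrichment, centred on each library, was -0.06, -0.04 and -0.01 in the 3 zones. At single sites, 135 of the 677 middle-zone sites (19.9%) had a lower pileup in all RES-A than in any LNCaP library and 1 had a higher one. In the genome 4.83% of the sites were lower and 5.38% higher without overlap.

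Peaks called in 1 subline alone were unevenly spread as well. Of 48724 merged regions on chromosome 4, 34 were called in all 12 LNCaP and no RES-A libraries, and 157 in all 12 RES-A and no LNCaP libraries. Over the genome these patterns made up 0.0398% and 0.599% of 744442 merged regions. The lists with the fewest peaks, and the fewest chances of a call, belonged to LNCaP. On 4p the counts were 2 and 81 of 12587 merged regions, and on 4q 32 and 76 of 36137. The middle zone, with 23875 merged regions, held 28 of the 34 LNCaP regions and 27 of the 157 RES-A regions, so that it had about as many of either kind.

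The regions of this kind with the highest rank in their lists were as follows. On 4q, chr4:95933508-95934156 was called in LNCaP with a fold enrichment of 5.25 to 8.02 (median 6.62) and chr4:94797967-94798521 with 4.55 to 6.46 (median 5.55). Both lay in the middle zone, in a bin where the background differed by -0.79. The RES-A regions on 4q were chr4:184825952-184826600, with a fold enrichment of 7.82 to 12.8 (median 11.1), and chr4:140968467-140968854, with 6.58 to 10.4 (median 8.83). Both of these lay in the distal zone. On 4p the RES-A regions were chr4:9991557-9991959, with a fold enrichment of 7.35 to 15.4 (median 11.3), and chr4:6751098-6751532, with 5.62 to 7.52 (median 6.86). The only LNCaP regions on 4p were chr4:29738887-29739553, with 3.63 to 8.06 (median 5.79), and chr4:29154317-29154953, with 4.15 to 6.16 (median 4.50), both from 28 to 30 Mb, where the share ratio was 0.544.

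No effect of treatment on the share of either arm passed the test. The exact two-sided permutation test compared 6 with 6 libraries, with treatment labels permuted within sublines over 400 relabellings, and the 6 p-values were adjusted together. The smallest p this exact permutation test can give is 0.005. The 4q share with DHT was 4.97% ± 0.339 in LNCaP and 3.60% ± 0.0591 in RES-A (SD, n = 3), and with DMSO 4.94% ± 0.387 and 3.54% ± 0.102. The mean difference was 0.0442 percentage points (exact permutation p = 0.75, adjusted p = 0.915). It was 0.0125 for ENZ minus DMSO (exact permutation p = 0.91) and -0.0624 for DHT+ENZ minus DHT (exact permutation p = 0.605), and the adjusted p was 0.915 for both. On 4p the differences were 0.00194, 0.00284 and -0.00379 percentage points (exact permutation p = 0.915, 0.765 and 0.845, adjusted p = 0.915 for each). The sublines went opposite ways on 4p, with 0.0331 in LNCaP and -0.0292 in RES-A for DHT minus DMSO, and -0.0330 and 0.0254 for DHT+ENZ minus DHT. These differences had an exact permutation p of 0.3 in LNCaP and 0.2 in RES-A, in a design of 3 against 3 that cannot go below 0.1.

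Nor did any 2-Mb bin of chromosome 4 pass the test for a treatment. With limma over 1463 bins and an adjusted p under 0.05, 0 of 95 bins were called for DHT minus DMSO in LNCaP or RES-A, ENZ minus DMSO in LNCaP or RES-A, or DHT+ENZ minus DHT in LNCaP or RES-A. At an unadjusted p under 0.05 there were 6, 5, 3, 0, 5 and 5 bins in that order. In the genome, 0.615% of the bins were called for DHT minus DMSO and 0.205% for DHT+ENZ minus DHT in LNCaP, and 0% in the other 4 comparisons. The bin from 32 to 34 Mb, named after its value was seen, had the smallest p on the chromosome, with a log2 change of 0.64 ± 0.16 (SE) for DHT minus DMSO in LNCaP (limma adjusted p = 0.0696). It stayed short of the threshold.

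Single sites responded to DHT. Of the 1580 sites called in all 24 libraries, 169 rose and 119 fell in RES-A with DHT against DMSO (limma over 29296 sites, adjusted p under 0.05), and in LNCaP 42 rose and 19 fell. In the genome, 10.1% of the sites rose and 5.83% fell in RES-A, and 3.33% rose and 2.10% fell in LNCaP. The share called on chromosome 4, 18.2% in RES-A and 3.86% in LNCaP, was thus near that of the genome (15.9% and 5.43%). Among the called sites the median log2 change was 0.79 for rises and -0.61 for falls in RES-A, and 0.68 and -0.52 in LNCaP. These directions are relative to the median site of a library. Against the genome-wide background, DHT moved the median of all sites by -0.42 in LNCaP and 0.07 in RES-A. On that scale 0 sites rose and 124 fell in LNCaP, and 86 rose and 7 fell in RES-A. The share called was 7.85% in LNCaP and 5.89% in RES-A, near the 9.90% and 5.77% of the genome. There 7 sites rose and 2892 fell in LNCaP, and 1569 rose and 121 fell in RES-A. Single libraries also moved the counts relative to the median site. In LNCaP 66 rose and 51 fell without ENZ replicate 1, which enters only through the shared spread, 15 and 6 without DHT replicate 1, 25 and 2 without DMSO replicate 3, and 27 and 8 without DMSO replicate 1, and 9 fell without DHT replicate 3. In RES-A 69, 76 and 74 fell without DMSO replicate 2, DMSO replicate 3 and DHT replicate 1.

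The DHT-responsive sites were spread over the 3 zones, the middle one included. In RES-A 73 of 677 sites rose and 59 fell in the middle zone (19.5% called), 57 of 562 rose and 45 fell in the proximal zone (18.1%), and 39 of 341 rose and 15 fell in the distal zone (15.8%). In LNCaP 4.43%, 4.09% and 2.35% were called in the same order. The zone whose background was lower in RES-A still held DHT-responsive sites in this subline. Of the 61 sites called in LNCaP, 35 were also called in RES-A, all in the same direction (29 rises and 6 falls), which is 57.4% of the LNCaP and 12.2% of the RES-A calls. In the genome the shared calls made up 54.0% of the LNCaP and 18.4% of the RES-A calls. The sublines share no library, but both changes come from 1 fit with a common variance for each site. Of the 169 sites that rose in RES-A, 92.3% had a change above 0 in LNCaP, against 56.1% of all 1580 sites, and in the genome these shares were 94.3% and 51.1%.

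The site with the smallest adjusted p for a rise in RES-A lay in the middle zone, at chr4:100938881-100940066. Its centred log2 pileup in RES-A was -1.79, -2.07 and -2.15 with DMSO and 0.27, 0.30 and -0.05 with DHT. In LNCaP it was 0.12, 0.07 and 0.00 with DMSO and 0.87, 1.01 and 0.77 with DHT. Treated and control libraries did not overlap in either subline, and RES-A began far lower. The log2 change was 2.18 ± 0.19 (SE) in RES-A (limma adjusted p = 3.23e-10) and 0.82 ± 0.19 in LNCaP (limma adjusted p = 0.00925), and the changes differed between the sublines by 1.36 ± 0.27 (limma adjusted p = 0.00394).

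The next rise in RES-A was on 4p, at chr4:40808644-40809510. There the pileup in RES-A was -1.18, -1.02 and -0.94 with DMSO and 0.86, 0.90 and 0.65 with DHT, a change of 1.85 ± 0.16 (limma adjusted p = 4.92e-10). In LNCaP it was 0.20, -0.37 and 0.14 with DMSO and 0.94, 0.58 and 0.75 with DHT, a change of 0.77 ± 0.16 (limma adjusted p = 0.00639). With DHT both sublines reached a similar level relative to the median site of their libraries. The falls in RES-A were led by chr4:59923517-59924075, next to the proximal change point, where the pileup was -0.06, -0.25 and -0.06 with DMSO and -1.10, -1.83 and -1.47 with DHT (change -1.34 ± 0.18, limma adjusted p = 5.93e-07). The second was chr4:125772473-125773636, which changed by -1.06 ± 0.17 in RES-A (limma adjusted p = 1.32e-05) and by -0.57 ± 0.17 in LNCaP (limma adjusted p = 0.0396).

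In LNCaP the rises were led by 2 sites on 4p. At chr4:37884027-37885169 the pileup was -0.70, -0.56 and -1.21 with DMSO and 0.50, 0.28 and 0.56 with DHT, a change of 1.27 ± 0.19 (limma adjusted p = 0.000223). RES-A changed there by 1.61 ± 0.19 (limma adjusted p = 5.85e-08), and the difference of 0.34 ± 0.26 between the sublines did not pass (limma adjusted p = 0.614). At chr4:47688996-47689519 the change was 1.05 ± 0.20 in LNCaP (limma adjusted p = 0.0029) and 1.44 ± 0.20 in RES-A (limma adjusted p = 2.05e-06). The falls were led by chr4:37649655-37650577, at -0.76 ± 0.16 in LNCaP (limma adjusted p = 0.00519) and -0.64 ± 0.16 in RES-A (limma adjusted p = 0.00365). The second, chr4:57301601-57302011, changed by -0.63 ± 0.15 in LNCaP (limma adjusted p = 0.0107) and by 0.13 ± 0.15 in RES-A (limma adjusted p = 0.687).

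The response to DHT itself differed between the sublines at 26 sites of chromosome 4. Only RES-A had ENZ in the medium before treatment, so subline and earlier ENZ cannot be told apart in this difference. The change was higher in RES-A at 23 and lower at 3, against 1.08% and 0.184% of the sites in the genome. All 23 also rose in RES-A taken alone and 6 of them in LNCaP, and the 3 others all fell in RES-A. The difference is made of these same changes, so this agreement follows in part from how the sites were picked. At chr4:159934834-159935339, in the distal zone, the pileup in RES-A was -0.57, -0.28 and -0.72 with DMSO and 0.60, 0.52 and 0.73 with DHT. In LNCaP it was 0.40, 0.65 and 0.34 with DMSO and 0.32, 0.73 and 0.40 with DHT. Only RES-A was apart between the treatments, and with DHT it reached the level of LNCaP with DMSO or DHT on this centred scale. The changes, 1.14 ± 0.15 and 0.02 ± 0.15, differed by 1.12 ± 0.21 (limma adjusted p = 0.00238).

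**Figure D5:**
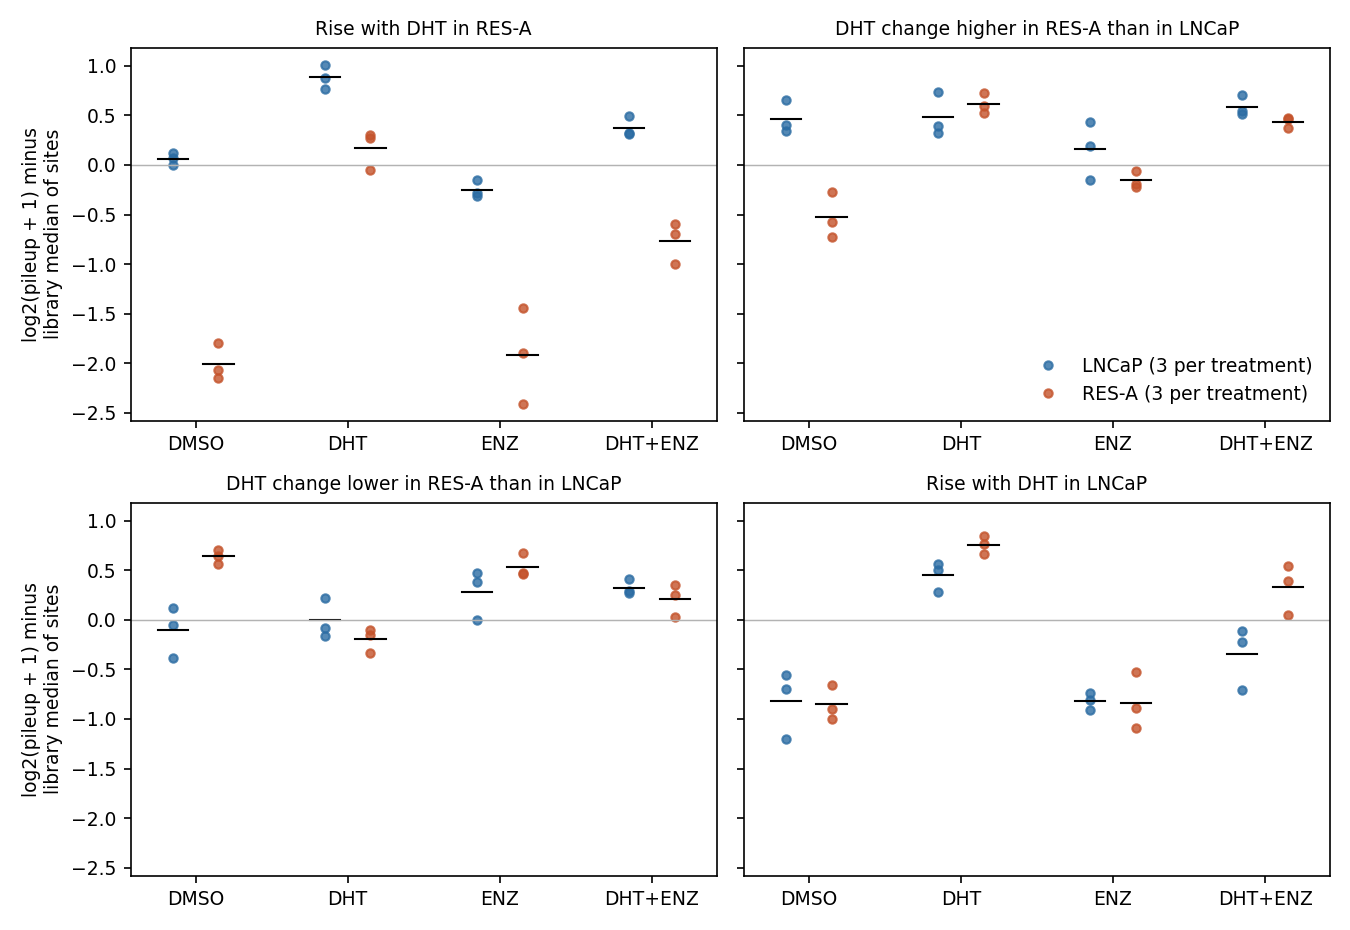
Centred log2 pileup of 4 sites in all 24 libraries, by treatment (points, 3 libraries per subline and treatment; black lines, means; 0, the median of all sites of a library). Upper left, the middle-zone site that rose by 2.18 in RES-A and 0.82 in LNCaP; upper right, the distal site whose change differed by 1.12; lower left, the 4p site whose change differed by -0.94; lower right, the 4p site that rose by 1.27 in LNCaP and 1.61 in RES-A.

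A further distal site, chr4:153923150-153923986, rose by 1.29 ± 0.14 in RES-A (limma adjusted p = 2.69e-08) and changed by 0.23 ± 0.14 in LNCaP, a difference of 1.06 ± 0.20 (limma adjusted p = 0.00299). Opposite differences were found at 2 nearby sites of 4p. At chr4:28482952-28483876 the pileup in RES-A was 0.57, 0.71 and 0.64 with DMSO and -0.10, -0.16 and -0.33 with DHT, and in LNCaP 0.12, -0.05 and -0.38 with DMSO and 0.22, -0.16 and -0.08 with DHT. The difference of the changes was -0.94 ± 0.21 (limma adjusted p = 0.0121). At chr4:28261214-28262501 it was -1.02 ± 0.23 (limma adjusted p = 0.0162), where the pileup in RES-A was 0.08, 0.47 and 0.12 with DMSO and -0.73, -1.12 and -0.50 with DHT, and the change in LNCaP was 0.01. Against the genome-wide background, 29 sites were higher and 0 lower in this difference, on a scale that moved the median of all sites by 0.51. These were 1.84% of the sites, against 1.32% called in the genome. Without LNCaP DHT replicate 1 or RES-A DMSO replicate 2, 12 sites were higher, and without LNCaP DMSO replicate 2 or LNCaP DHT replicate 3, 15.

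ENZ alone, given to cells without added androgen, gave no call on chromosome 4. RES-A, unlike LNCaP, had been in ENZ for the 3 days before. In RES-A the comparison was thus between ENZ and DMSO given after ENZ. Of 1580 sites 0 were called in LNCaP, in RES-A or for the difference between them (limma), with 141, 67 and 98 at an unadjusted p under 0.05. In the genome, 0% rose and 0.00341% fell in LNCaP, 0% rose and fell in RES-A, and the difference was higher at 0.00341% and lower at 0%.

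With ENZ added to DHT, some sites were lower than with DHT alone and, in RES-A, others were higher. In RES-A 20 sites rose and 33 fell with DHT+ENZ against DHT, against 1.20% and 1.77% in the genome, and in LNCaP 0 rose and 3 fell, against 0.0614% and 0.188%. No site passed for the difference between the sublines (0% in the genome in either direction, and 79 sites of chromosome 4 at an unadjusted p under 0.05). These comparisons share the DHT libraries with those of DHT against DMSO, where they enter with the opposite sign. A site picked for a high value with DHT thus tends to fall here by construction. The values are therefore only set side by side, and a reversal of the DHT change was not tested. The 3 falls in LNCaP were lost without any one of the 6 libraries compared, and in RES-A 8 to 33 sites rose and 10 to 41 fell with 1 library left out at a time. Against the genome-wide background no site of chromosome 4 was called in either subline (0% in the genome).

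The site that fell in both sublines with the smallest adjusted p in LNCaP was chr4:77119136-77120189 in the middle zone. Its pileup in LNCaP was 0.74, 0.65 and 0.51 with DHT and -0.09, -0.06 and -0.03 with DHT+ENZ, a change of -0.69 ± 0.14 (limma adjusted p = 0.0282). In RES-A it was 0.78, 0.67 and 0.91 with DHT and 0.19, 0.23 and 0.21 with DHT+ENZ, a change of -0.58 ± 0.14 (limma adjusted p = 0.0192). In neither subline did the treatments overlap. On 4p, chr4:6634716-6635681 fell by 0.89 in LNCaP (limma adjusted p = 0.0424) and by 1.06 in RES-A (limma adjusted p = 0.00241). In RES-A, chr4:40808644-40809510, also called as a rise with DHT against DMSO, fell by 0.89 (limma adjusted p = 0.00209). The sites at chr4:28261214-28262501 and chr4:59923517-59924075, also called as falls with DHT against DMSO, rose by 1.03 and 0.92 (limma adjusted p = 0.000645 and 0.00307). The same DHT libraries enter both calls at these sites.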

How the data were processed

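FAIRE-seq libraries of LNCaP and RES-A cells were sequenced as 50-bp single-end reads. According to the submitters' processing notes and the study's methods, the authors aligned them to hg19 with BWA 0.7.8-r455, marked duplicates with Picard 1.118 and called peaks per library with MACS2 2.1.0. Its options are not given in the sources used here. The deposited lists give each peak's pileup (a signal in overlapping reads, not scaled between libraries), fold enrichment (a ratio) and −log10 p and q values. Chromosome 4, its bins and the tests were chosen with earlier results of these data known. Peaks were placed by their midpoint. The background was computed as (pileup + 1) / fold − 1, which assumes that the peak caller added 1 to both terms, and the smallest value in a list was taken as its genome-wide background. Change points came from least-squares segmentation (at least 3 bins per segment, penalty 3 × log of the number of bins × noise variance). Sites were peaks merged at an overlap of 1 bp. Bins were tested as log2((peaks + 0.5) / (list total + 1)) and sites as centred log2(pileup + 1) with limma 3.58.1 in R 4.3.3, in 1 fit of 8 groups, adjusted by the Benjamini-Hochberg method. The scripts were tested on simulated data. Named bins were the 3 per direction with the most extreme share ratio and those beside the change points; named regions and sites were the 2 per arm or contrast and direction with the highest rank or smallest adjusted p. Alternatives were the 50000 peaks ranked highest, q under 0.01, autosomes only, other bins, penalties, centrings and filters, no pseudocount, sites called in at least 20 libraries, a replicate block, and leaving out each library. Chosen after seeing the data were the 500-kb bins, leaving out both libraries with a background under 1 in the tests, and the pileup of all peaks or against the genome-wide background in the subline contrast. Read totals were not used here, so no counting intervals are given, and p-values measure the spread between the labelled replicates.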

Additional observations from a re-analysis of the deposited data

Results flagged for a closer look

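The change with DHT against DMSO differed between RES-A and LNCaP by a test of the difference itself (limma, adjusted p under 0.05) at 26 sites of chromosome 4, with 23 higher and 3 lower in RES-A. The share called was 1.65% on chromosome 4, near the 1.26% of all sites of the genome. The called sites were 7 of the 677 in the middle zone (1.03%), 10 of 562 in the proximal (1.78%) and 9 of 341 in the distal zone (2.64%). The difference between zones was not tested. The named sites were chr4:159934834-159935339 with a difference of 1.12, chr4:153923150-153923986 with 1.06, chr4:28482952-28483876 with -0.94 and chr4:28261214-28262501 with -1.02 on the log2 scale. Without LNCaP DHT replicate 1, which had a background of 0.739 reads per base, 12 sites were higher and 0 lower, and without RES-A DMSO replicate 2 the counts were 12 and 1. Without LNCaP DMSO replicate 2 or LNCaP DHT replicate 3, 15 sites were higher, and without LNCaP DHT replicate 2 or LNCaP ENZ replicate 1, 7 or 8 were lower. The cause was not tested.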

How the results depend on the processing

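The direction of the lower share, background and middle-minus-outer contrast of RES-A on 4q and in the middle zone was kept under every alternative run, and leaving out any single library moved these values by less than the spread between replicates. With the 50000 peaks ranked highest, the log2 ratio of the share was -0.55 on 4q (main -0.47) and -0.78 in the middle zone (-0.69), and the background difference was -0.13 on 4q (-0.24), -0.23 in the middle zone (-0.34) and 0.069 on 4p (-0.03). At sites called in all 24 libraries the 4p background difference was 0.067 and the middle-minus-outer difference of the background -0.44 (main -0.30). The difference of the library medians of pileup (main -0.12 on 4p, -0.36 on 4q and -0.51 in the middle zone) was 0.29, 0.049 and -0.096 against the genome-wide background, and 0.0049, -0.080 and -0.097 over all peaks. Bins higher in RES-A without overlap numbered 6 with 1-Mb bins, 2 of 39 with 5-Mb bins and 6 with q under 0.01. The proximal change point lay at 64 Mb with DMSO and with ENZ alone, and the number of change points was 7 by share, 5 with 1-Mb bins and 4 with ENZ alone. No test of an arm share passed under any alternative (adjusted p from 0.18 to 1 by exact permutation).

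Treatment calls were less stable. Among the 50000 peaks ranked highest, 1 of 59 bins fell with DHT in LNCaP and 2 of 59 in RES-A. These were 1.69% and 3.39% of the bins, against 2.38% and 3.48% called in the genome. Without the 2 libraries with a background under 1, 2 of 95 bins rose with DHT in LNCaP (2.11%, against 3.21% called in the genome). Leaving out 1 library at a time gave 0 to 2 rises (2 without LNCaP DMSO replicate 2, 1 without LNCaP DHT replicate 3 or LNCaP ENZ replicate 1). Against the genome-wide background, sites that rose and fell with DHT numbered 0 and 124 in LNCaP and 86 and 7 in RES-A. The share called was 7.85% in LNCaP and 5.89% in RES-A, against 9.90% and 5.77% in the genome. On the same scale 0 were lower in the difference between sublines. With DHT+ENZ against DHT, 0 fell in LNCaP and 0 rose and 0 fell in RES-A. Requiring a call in at least 20 libraries gave 5000 chromosome 4 sites for DHT in LNCaP and 4993 in RES-A, in place of 1580. Among them, 69 fell with DHT in LNCaP, 485 rose and 305 fell in RES-A, and 59 were higher and 0 lower in the difference. With DHT+ENZ 1 rose and 0 fell in LNCaP and 58 rose and 97 fell in RES-A. The share called with DHT was 2.58% in LNCaP (main 3.86%, genome with this filter 3.18%) and 15.8% in RES-A (18.2% and 15.6%). With DHT+ENZ in RES-A it was 3.10% (3.35% and 3.40%). Without the libraries with a background under 1, 31 fell with DHT in LNCaP, 1 rose with ENZ in LNCaP, and with DHT+ENZ 5 rose and 5 fell in LNCaP and 52 rose and 56 fell in RES-A. Leaving out 1 library at a time gave, for DHT, 15 to 66 rises and 2 to 51 falls in LNCaP, 69 to 142 falls in RES-A, and 12 to 33 higher and 0 to 8 lower in the difference; for DHT+ENZ it gave 0 to 4 rises and 0 to 8 falls in LNCaP and 8 to 33 rises and 10 to 41 falls in RES-A. With DHT+ENZ in RES-A the counts of rises and falls were 9 and 10 without DHT replicate 1, 10 and 12 without DHT replicate 2, 10 and 14 without DHT+ENZ replicate 2 and 8 and 18 without DHT+ENZ replicate 3; 18 fell without DHT replicate 3, 13 fell without DHT+ENZ replicate 1, and 33 rose without LNCaP ENZ replicate 1. The cause was not tested.

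With the replicate number as a block, 1 site rose and 6 fell with DHT+ENZ in LNCaP, and the block changed no other call by over 1.5 times (DHT: 54 rises and 25 falls in LNCaP, 176 and 126 in RES-A; adjusted p = 0.906 for all 6 arm shares by exact sign-flip permutation). Same-numbered libraries of a subline correlated between -0.20 and 0.37 in their deviations from the group means (median 0.056, against -0.027 for different numbers), and 17 of 24 libraries correlated best with their own number. This is a hint of pairing from the data, but not every pair was above 0.1 and the labels give no shared day or batch, so the fit without the block was kept. The lowest-background libraries limit what the lists of LNCaP show: their peaks are the fewest, and a site must be called in them to be among the 1580.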

Other observations

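Values outside the naming rule, chosen after they were seen, were as follows. On 4p the share ratio was below 1 from 26 to 50 Mb in all 12 bins, and the bin from 34 to 36 Mb had a ratio of 0.34 and 70.1% of its RES-A peaks at the genome-wide background, against 24.7% in LNCaP. From 24 to 26 Mb and from 158 to 160 Mb the share was higher in all RES-A libraries, with ratios of 1.20 and 1.21. In the middle zone, chr4:111114889-111115421 was the 1 site of 677 whose pileup was higher in all RES-A libraries, at -0.71 to -0.24 in LNCaP and 0.47 to 1.29 in RES-A (centred log2). The site with the greatest deficit, chr4:66257931-66258998, lay at -0.15 to 0.80 in LNCaP and -2.18 to -1.40 in RES-A.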
